A study of Mus musculus with 44 samples.

Results

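The 10 genes followed here through early mouse development write, copy, remove or guard DNA methylation: Dnmt1, Dnmt3a, Dnmt3b, Dnmt3l, Uhrf1, Tet1, Tet2, Tet3, Tdg and Zfp57. They were taken by gene name from the 32287 gene entries of the expression files, and all 10 were found under 1 identifier each in all 44 libraries. In mammals DNMT3A and DNMT3B place methyl groups on unmethylated cytosines of CpG dinucleotides, and DNMT3L, which has no catalytic activity of its own, assists them. DNMT1 copies the pattern onto the new strand after replication, to which UHRF1 brings it by binding hemimethylated DNA. The TET enzymes oxidise 5-methylcytosine, TDG cuts out the more oxidised forms so that repair can restore cytosine, and ZFP57 is a zinc finger protein that protects the methylation of imprinted regions. The mouse epiblast gains genome-wide methylation around implantation, whereas extraembryonic tissues are known for a lower and more patchy methylome.

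The embryos were made by aggregating GFP-expressing embryonic stem cells (the male F1G4 line with a CAG-EGFP insertion at Rosa26, grown in serum and LIF) with mCherry-expressing morulae, so that GFP marked the embryonic lineage and mCherry the extraembryonic lineage. The morulae came from mCherry males of a C57BL/6J-maintained colony and CD-1 females, carried an EF1a-driven mCherry and could be of either sex, and the aggregates developed in pseudopregnant CD1 females. At E6.5 each of 4 libraries per group held tissue dissected from 1 embryo: Epi, the GFP+ epiblast, exEndo1, the distal extraembryonic endoderm, and exEndo2, the proximal extraembryonic endoderm. At E9.5 each of 4 libraries per group held EPCAM+ cells sorted from 4 pooled embryos: emMidgut and emHindgut (together emGut), GFP+ cells from the gate labelled dual low, which also carried a low mCherry signal, and mCherry+ exMidgut, exHindgut (together exGut) and YsEndo, the yolk sac endoderm. At E13.5 each of 3 libraries per group came from the small intestine or the colon of 1 embryo: GFP+ wild-type emSI and emColon (together emIntestine), and mCherry+ exSI and exColon (together exIntestine) whose host zygotes had received Cas9 against Trp53. Lineage therefore changed together with the source cells, strain background and possible sex, and at E13.5 also with the Trp53 genotype, and these cannot be told apart here. Stage changed together with dissection, sorting and pooling, and from E9.5 to E13.5 in the extraembryonic lineage also with the Trp53 genotype.

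Levels are given as TPM, an abundance scaled per transcript length and to a fixed total per library. This lets genes be set side by side within a library, but in most E9.5 libraries the deposited read coverage ranked Dnmt3a and Dnmt3b otherwise. Fold changes are log2 differences on the log2(TPM + 1) scale, with the standard error (SE) and the Benjamini-Hochberg adjusted p of limma over all tested protein-coding genes. A gene was called, and is said here to be higher, lower, to rise or to fall, at an adjusted p under 0.05 together with an absolute log2 difference above 1. The median read coverage of genes above 1 TPM was 16.4 to 57.6 between libraries, and 10382 to 13596 genes exceeded 1 TPM. Reporter RNA followed the labels: EGFP was at 179.6 TPM or more in every embryonic and at most 15.9 TPM in every extraembryonic library, and mCherry at 1731 TPM or more in every extraembryonic and at most 6.61 TPM in every embryonic library. Of the marker lists, 6 visceral endoderm genes summed to 14.1 to 28.7 TPM in Epi and to 9437 to 13880 TPM in exEndo1, while 6 epiblast genes summed to 1655 to 2886 TPM in Epi, to 53.3 to 393.9 TPM in exEndo1 and to 6.58 to 35.9 TPM in exEndo2. Gut endoderm genes summed to 1128 to 3007 TPM in every E9.5 and E13.5 library, blood markers to at most 12.5 TPM and endothelial markers to at most 5.64 TPM in any library. A few libraries stood apart. The lowest Epi library (replicate 4) held 106.7 TPM of Dnmt3a and 1067 TPM of the epiblast factor Pou5f1. Replicates 1 and 3 of emMidgut held 224.2 and 183.2 TPM of the germ cell gene Dppa3, which was at 0 in the other two emMidgut libraries. From the same list, Dnd1 was at 28.5, 0, 17.2 and 3.02 TPM in emMidgut replicates 1 to 4. Nanos3 did not follow, at 0.506, 5.135, 2.21 and 1.02 TPM. From the epiblast list, Pou5f1 was at 93.6, 0, 130.9 and 0 TPM in emMidgut replicates 1 to 4. Nanog was at 15.8, 0, 9.75 and 0 TPM there, and Utf1 at 27.4, 0, 18.05 and 0.606 TPM. Otx2 of that list was at 0 in all of them and Fgf5 at no more than 0.330 TPM. Replicates 2 and 4 of exEndo2 held 7.02 and 6.51 TPM of the extraembryonic ectoderm gene Elf5. Eomes of that list was at 9.81, 8.44, 6.05 and 15.9 TPM in exEndo2 replicates 1 to 4. In bulk tissue, fewer cells of a type and less RNA per cell cannot be told apart.

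**Figure D1:**
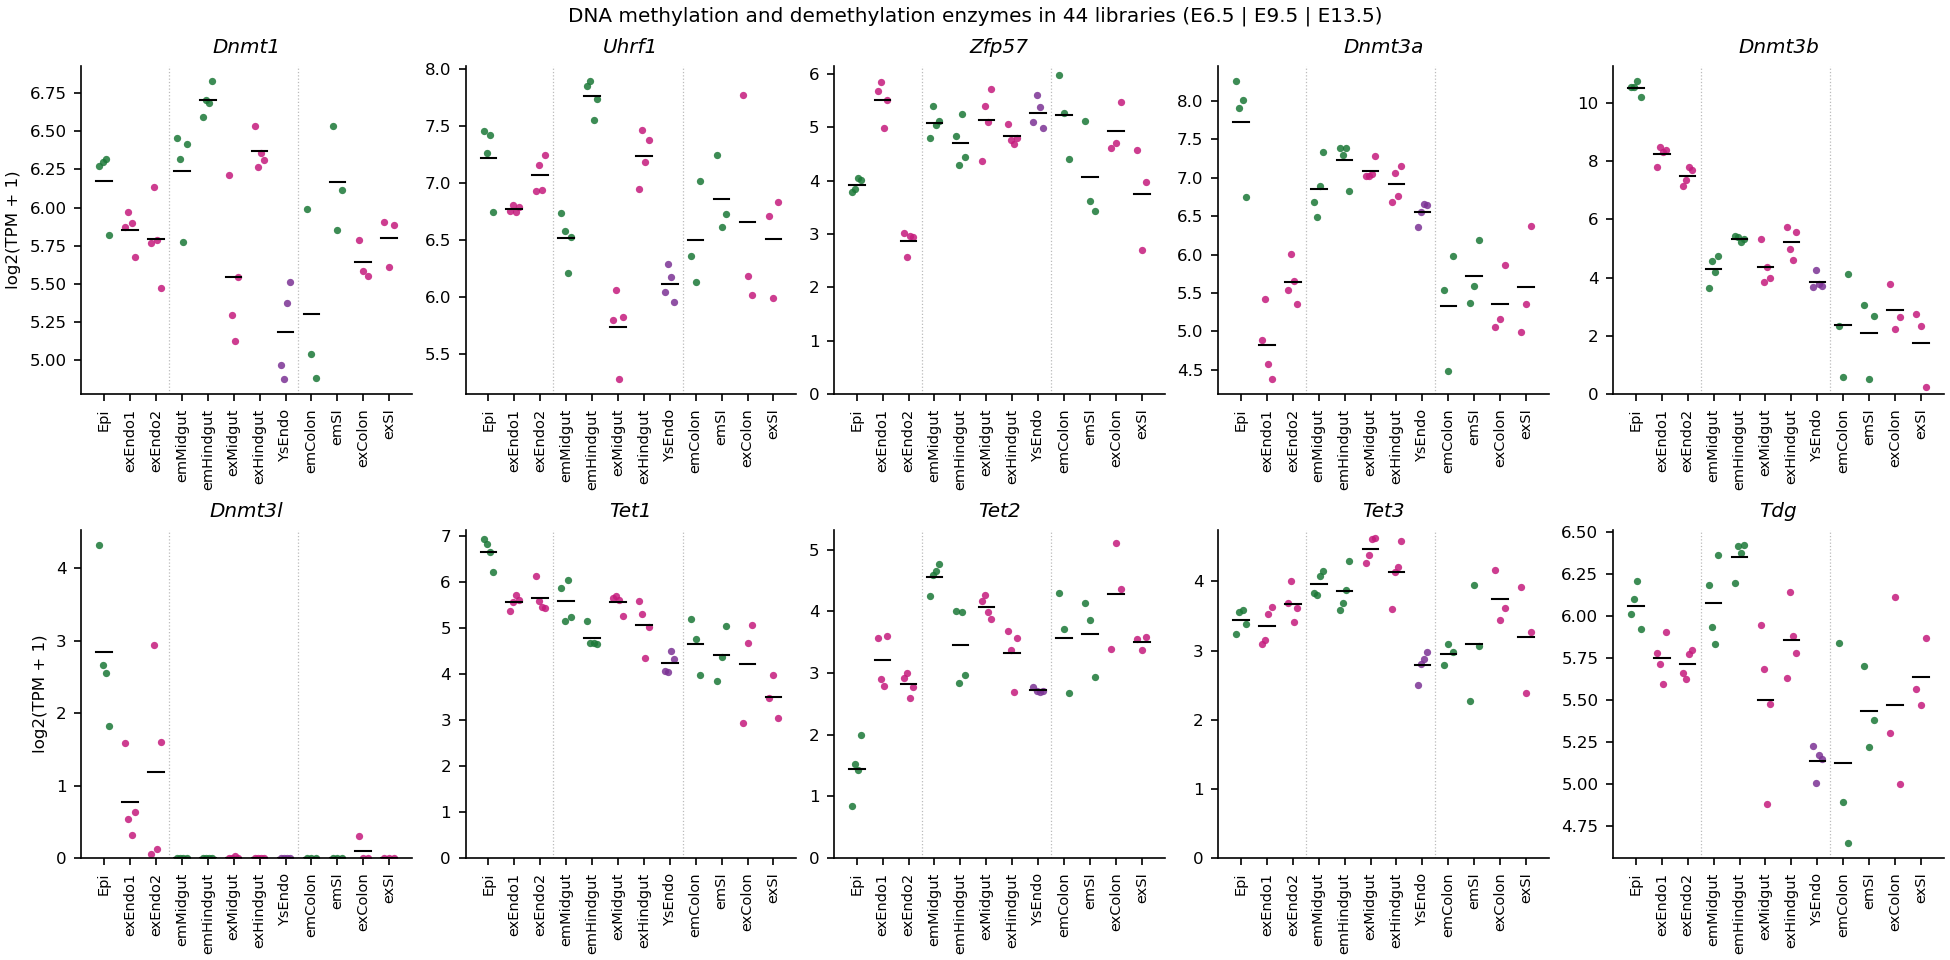
Level of each of the 10 genes in every library, as log2(TPM + 1), by group from E6.5 to E13.5. Points are libraries (green, embryonic; magenta, extraembryonic; purple, yolk sac endoderm), bars are group means, dotted lines separate the stages, and the vertical axes differ between genes and do not all start at 0. Dnmt3b spans the widest range, from a mean of 1465 TPM in Epi to a few TPM at E13.5, while Dnmt1, Uhrf1 and Tdg stay within a narrower band.

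The 2 genes with the most particular profiles at E6.5, described next, were Dnmt3b, at its top in the epiblast, and Zfp57, which separated the distal from the proximal extraembryonic endoderm. The 250 bases before the RefSeq start of each (GRCm38.p6, plus strand, CpG dinucleotides in capitals) are shown because CpG is the letter pair that all of these proteins act on or around, and because the windows differ: that of Dnmt3b, chr2:153649199-153649448, holds 21 CpG and that of Zfp57, chr17:37000913-37001162, holds 6.
Dnmt3b: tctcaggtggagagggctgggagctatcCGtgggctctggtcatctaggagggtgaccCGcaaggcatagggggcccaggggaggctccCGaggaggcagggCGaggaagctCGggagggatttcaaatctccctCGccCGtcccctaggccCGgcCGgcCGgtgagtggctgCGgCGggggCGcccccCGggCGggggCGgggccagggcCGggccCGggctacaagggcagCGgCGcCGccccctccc
Zfp57: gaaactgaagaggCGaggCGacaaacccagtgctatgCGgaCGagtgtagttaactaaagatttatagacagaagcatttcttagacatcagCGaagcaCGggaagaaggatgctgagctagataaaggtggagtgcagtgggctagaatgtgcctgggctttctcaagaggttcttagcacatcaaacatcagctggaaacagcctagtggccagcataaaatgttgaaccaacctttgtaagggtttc

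At E6.5 the question was how the embryonic and extraembryonic lineages differ in their methylation machinery. The distal extraembryonic endoderm, exEndo1, held far less of the de novo enzymes and of Tet1 than the epiblast and more Tet2 and Zfp57, while the copying enzyme Dnmt1 and its partner Uhrf1 differed by less. All 10 genes were tested and 6 were called. Of these, 4 were lower, where 13.6% of all tested genes were called lower, and 2 were higher, where 19.8% of all were called higher. Dnmt3l, among these 4, passed the filter on low values only through its Epi libraries, so its place there is no separate result. The median log2 difference of the 10 was -0.38, against 0.09 over all 12057 genes tested.

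Dnmt3b (ENSMUSG00000027478, mm10 chromosome 2 from 153649450 to 153687730) had the highest level of all 10 genes in Epi. The 4 Epi libraries held 1486, 1486, 1723 and 1167 TPM, and the exEndo1 libraries 220.4, 355, 319.9 and 336 TPM. Every exEndo1 library lay under every Epi library, with means 4.76-fold apart and a log2 difference of -2.26 (SE 0.17, adjusted p 6.11e-07). Dnmt3c, a near-copy that serves in the male germline of rodents, was listed at 2.83 to 3.21% of the Dnmt3b level in Epi and at 2.59 to 4.97% in exEndo1, and how reads were split between the copies is uncertain.

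Dnmt3a (ENSMUSG00000020661, chromosome 12 from 3806007 to 3914443) had the largest difference of the 10 on the log2(TPM + 1) scale. Epi held 307, 239.5, 256.5 and 106.7 TPM, and exEndo1 28.7, 41.9, 22.8 and 19.8 TPM. The groups did not overlap even with the low Epi library, the means were 8.05-fold apart, and the log2 difference was -2.92 (SE 0.32, adjusted p 1.11e-05). Dnmt3l (ENSMUSG00000000730, chromosome 10 from 78041947 to 78063622), the inactive partner, was at 19.0, 5.33, 4.87 and 2.56 TPM in Epi and at 2.02, 0.452, 0.249 and 0.550 TPM in exEndo1. It was low in both tissues and did not overlap, with a log2 difference of -2.07 (SE 0.46, adjusted p 0.0022). In this and the exEndo2 comparison its 4 Epi libraries alone met the filter on low values. The exEndo1 library with 2.02 TPM also held 2.74 TPM of Elf5 and 19.4 TPM of Dppa3, and the Epi library with 19.0 TPM held 19.2 TPM of Dppa3. The part of such cells in the Dnmt3l values was not tested. Without Epi replicates 1 and 4 together the same 6 genes were called.

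The genes of the epiblast list and the embryonic reporter in the dissected endoderm were set beside these values, without an estimate of epiblast RNA. In exEndo1 the epiblast factor Pou5f1 stood at 0.142 to 1.35% of its Epi mean, Dnmt3b at 15.0 to 24.3% and Tet1 at 39.9 to 51.1% of theirs. The embryonic reporter EGFP was at 0.0664 to 15.9 TPM in exEndo1 and at 179.6 to 532.3 TPM in Epi. The other five genes of the epiblast list stood above the Pou5f1 share. Nanog was at 1.31 to 4.09 TPM in exEndo1 and 45.5 to 70.4 TPM in Epi, Dnd1 at 0.999 to 1.88 and 6.998 to 18.9 TPM, and Utf1 at 11.8 to 48.3 and 144.6 to 452 TPM. Otx2 was at 179.3, 114.3, 4.18 and 91.9 TPM in exEndo1 and 268.3 to 359 TPM in Epi. Fgf5 was at 154.6, 115.1, 32.4 and 90.1 TPM in exEndo1, 97.9 to 149.7 TPM in Epi and no more than 2.12 TPM in exEndo2. The exEndo1 library with the least Pou5f1 (2.29 TPM), Otx2, Fgf5 and Utf1, replicate 3, held 319.9 TPM of Dnmt3b, within the range of the other three. The part of epiblast RNA in the exEndo1 values was not tested.

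Among the oxidising enzymes, Tet1 and Tet2 went opposite ways. Tet1 (ENSMUSG00000047146, chromosome 10 from 62804570 to 62908996), the main TET enzyme of pluripotent cells, was at 121, 111, 98.8 and 73.3 TPM in Epi and at 40.3, 45.9, 51.7 and 47.8 TPM in exEndo1. All 4 exEndo1 libraries were under all 4 Epi libraries, with a log2 difference of -1.09 (SE 0.16, adjusted p 0.00013). Without Epi replicate 1 this difference was -0.99 and missed the size limit. Tet2 (ENSMUSG00000040943, chromosome 3 from 133463679 to 133545139) was at 0.795, 1.86, 1.70 and 2.99 TPM in Epi and at 10.8, 6.44, 5.92 and 11.2 TPM in exEndo1. The groups did not overlap, Tet2 was 4.68-fold higher in exEndo1, and the log2 difference was 1.77 (SE 0.27, adjusted p 0.000177). Tet3, the TET enzyme known from the oocyte and zygote, was at 8.43 to 11 TPM in Epi and 7.54 to 11.3 TPM in exEndo1, and its log2 difference of -0.09 had a 95% interval from -0.48 to 0.30.

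Zfp57 (ENSMUSG00000036036, chromosome 17 from 37001163 to 37010635) marked out the distal endoderm. It was at 50.6, 56.5, 30.7 and 44.9 TPM in exEndo1, at 12.7, 13.4, 15.5 and 15.1 TPM in Epi and at 7.09, 4.90, 6.77 and 6.67 TPM in exEndo2. No group overlapped another, so that the order was exEndo1, Epi, exEndo2. Against Epi the log2 difference of exEndo1 was 1.59 (SE 0.19, adjusted p 2.06e-05). Between exEndo1 and exEndo2 it was 2.64 (SE 0.20, adjusted p 1.73e-05), a 7.19-fold ratio of means. Zfp57 was the only 1 of the 9 genes tested between the distal and proximal endoderm that was called, where 6.41% of all genes were called in either direction, and 4 of the 9 had an unadjusted p under 0.05. Dnmt3a (log2 difference -0.83, adjusted p 0.0294) and Dnmt3b (0.75, adjusted p 0.018) passed the p but not the size limit, and Dnmt3a was called as well without exEndo1 replicate 2.

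The proximal endoderm, exEndo2, differed from Epi in the same 5 genes other than Zfp57, and in Zfp57 the other way. All 10 genes were tested, with 5 lower (15.4% of all genes were called lower) and 1 higher (20.4% of all). Among these 5, Dnmt3l again passed the filter on low values only through its Epi libraries and is no separate result. Dnmt3b was at 140.8, 162, 222 and 208 TPM, 8.00-fold under Epi, with a log2 difference of -3.004 (SE 0.16, adjusted p 1.86e-08). Dnmt3a was at 45.6, 63.6, 49.3 and 40.0 TPM and its log2 difference was -2.09 (SE 0.28, adjusted p 3.85e-05). Both were clear of the Epi range. Tet2 was at 5.01 to 6.98 TPM and higher by 1.37 (SE 0.23, adjusted p 0.000243). The calls of the other three were close to a limit. Tet1 differed by -1.002 (SE 0.19, adjusted p 0.000625) and Zfp57 by -1.05 (SE 0.16, adjusted p 0.000125), and without exEndo2 replicates 2 and 4, which carried Elf5, these were -0.86 and -0.93 and no longer called. Dnmt3l was at 0.0389, 6.69, 0.0953 and 2.05 TPM in exEndo2, the higher values in those same replicates, and its log2 difference of -1.66 (SE 0.64, adjusted p 0.038) became -1.17 (adjusted p 0.116) without Epi replicate 1. Both endoderm comparisons used the same 4 Epi libraries.

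The genes of copying and excision differed little at E6.5. Dnmt1 (ENSMUSG00000004099, chromosome 9 from 20907209 to 20959888) was at 55.5 to 78.8 TPM in Epi and 50.1 to 61.8 TPM in exEndo1, a log2 difference of -0.32 (SE 0.14, adjusted p 0.0677). Uhrf1 (ENSMUSG00000001228, chromosome 17 from 56303321 to 56323486) was at 106.2 to 174.8 TPM in Epi and at 106.2 to 110.9 TPM in exEndo1 (log2 difference -0.45, adjusted p 0.0249), and Tdg (ENSMUSG00000034674, chromosome 10 from 82629828 to 82650799) at 59.6 to 73.0 and 47.4 to 59.0 TPM (-0.31, adjusted p 0.042). In these 3 genes the difference was smaller than a doubling, and for Tdg alone the groups did not overlap.

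The lists of neighbouring pathways moved in a mixed way between exEndo1 and Epi, where, as above, 13.6% of all genes were called lower and 19.8% higher. Of 9 partners of maintenance methylation 4 were lower and 0 higher, among them Cdca7l (3.92 ± 0.463 against 53.5 ± 6.07 TPM, SD, n = 4 each, log2 difference -3.47) and Cdca7 (41.0 ± 8.30 against 243.5 ± 23.2 TPM, -2.56), which work with the remodeller HELLS. Of 6 partners in imprint protection only Trim28, the co-repressor that ZFP57 recruits, was lower (139.4 ± 19.6 against 279.3 ± 10.5 TPM, -1.01). Of 12 base excision repair genes 3 were lower and 1 higher: the abasic site nuclease Apex1 differed by -1.68, the uracil glycosylase Ung by -1.18, and Gadd45b by 2.66 (23.1 ± 7.12 against 2.701 ± 0.409 TPM).

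In methyl donor supply, Mthfd2, a mitochondrial folate enzyme, was lower at 13.9 ± 2.21 against 91.1 ± 21.3 TPM (log2 difference -2.60), and Ahcy, which clears S-adenosylhomocysteine, was lower by -1.20. Single genes were called in the other lists: the methyl-CpG reader Mbd2 was higher by 1.09 (1 of 7), the TET-binding Cxxc4 lower by -1.40 (1 of 8), the H3K36 methyltransferase Nsd3 higher by 1.40 and the CpG island binder Kdm2b lower by -1.25 (2 of 11), and of 6 germline genes whose promoters are known to be methylated in somatic cells Ddx4 was higher by 1.17 and Sycp3 lower by -1.08. Of 12 S phase genes 5 were lower and 1 higher, including Mcm3 (-1.62), Mcm2 (-1.53) and the cyclin Ccne2 (1.02), with a list median of -0.90 against 0.09 over all genes. The S phase list moved with the Cdca7 and Hells values, and its part in them was not tested.

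**Figure D2:**
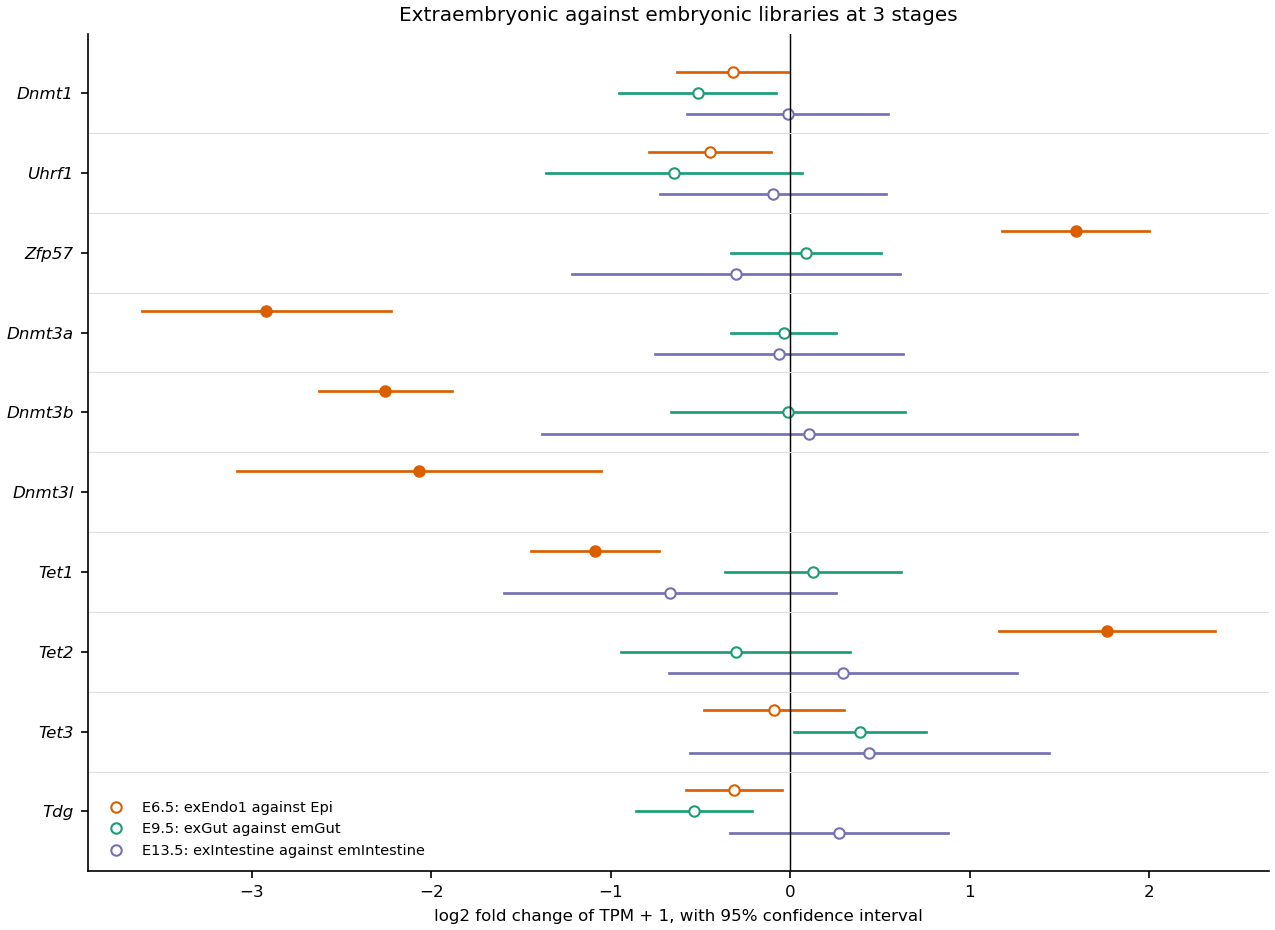
Extraembryonic minus embryonic log2 difference of each gene at E6.5 (exEndo1 against Epi), E9.5 (exGut against emGut) and E13.5 (exIntestine against emIntestine), with 95% intervals from limma. Filled points were called and open points were not. The 6 filled points are all at E6.5, from -2.92 for Dnmt3a to 1.77 for Tet2, and at E9.5 the intervals of Dnmt3a and Dnmt3b lie around 0.

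By E9.5 gut cells of both origins line the same tube, and the question was what remains of the lineage difference there. No difference in the de novo enzymes was detected between exGut and emGut, and 0 of the 9 genes tested were called, where 2.35% of all genes were. Of the 9, limma gave 3 an unadjusted p under 0.05 (Dnmt1, Tet3 and Tdg). Dnmt3l was not tested, being listed at 0 in all 8 emGut libraries and in 7 of 8 exGut libraries, with 0.0185 TPM in the other.

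Dnmt3a spanned 88.5 to 167.2 TPM in emGut (median 137.4, n = 8) and 101.7 to 154.3 TPM in exGut (median 130.1, n = 8). The log2 difference was -0.04, with a 95% interval from -0.33 to 0.26. Dnmt3b spanned 11.5 to 42.2 TPM (median 31.0) and 13.51 to 51.8 TPM (median 27.1), with a difference of -0.01 and an interval from -0.67 to 0.64. These intervals leave out the differences of -2.92 and -2.26 seen between exEndo1 and Epi. Tet1 spanned 24.0 to 64.6 TPM (median 34.5) in emGut and 19.3 to 50.9 TPM (median 42.6) in exGut, a difference of 0.13 (interval -0.36 to 0.62). The 2 emMidgut libraries with Dppa3 had the highest Tet1 of their group, 57.4 and 64.6 TPM against 34.6 and 36.5 TPM, and without both of them no gene of the 9 was called either. Tet2 (-0.30, interval -0.94 to 0.33) and Zfp57 (0.09, interval -0.33 to 0.51) overlapped between the origins as well.

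The genes of copying and excision leaned towards the embryonic side without being called. Tdg was at 56.1 to 84.8 TPM (median 76.7) in emGut and 28.5 to 69.6 TPM (median 52.2) in exGut, a log2 difference of -0.54 (SE 0.16, adjusted p 0.0655). Dnmt1 differed by -0.52 (SE 0.21, adjusted p 0.206) and Uhrf1 by -0.65 (SE 0.34, adjusted p 0.363). With gut region as a covariate the adjusted p was 0.0131 for Tdg, 0.0225 for Dnmt1 and 0.000772 for Uhrf1, and the differences were still under the size limit. The S phase list leaned the same way, with a median of -0.48 and 0 of 12 genes called but 10 of 12 at an unadjusted p under 0.05 by limma, and its part in these differences was not tested. Tet3 leaned the other way, by 0.39 (SE 0.18, adjusted p 0.27), with 11.02 to 18.6 TPM in emGut and 11.1 to 23.8 TPM in exGut.

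Within each region 4 libraries were compared with 4. In the midgut 0 of 9 genes were called (2.58% of all) and 3 had an unadjusted p under 0.05 by limma. Uhrf1 was at 54.6, 65.8, 37.9 and 55.7 TPM in exMidgut and at 105.9, 94.6, 73.1 and 91.4 TPM in emMidgut, without overlap, a difference of -0.77 (adjusted p 0.0415). In the hindgut 0 of 9 were called (3.07% of all) and 3 had an unadjusted p under 0.05. There Uhrf1 was at 122, 175.1, 144 and 164.8 TPM in exHindgut and at 229, 237, 186.3 and 212.5 TPM in emHindgut, again without overlap, with a difference of -0.52 (adjusted p 0.0293). Dnmt1 and Tdg leaned the same way, by -0.70 and -0.58 in the midgut and by -0.34 and -0.49 in the hindgut. The interaction of origin and region was called in 0 of 9 genes by limma (0.0965% of all), and 1, Dnmt3a, had an unadjusted p under 0.05 (-0.55, adjusted p 0.587).

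The copying genes also had larger values in the hindgut than in the midgut libraries of both origins, which was noticed in the values and is given without a test. The mean of Uhrf1 in emHindgut was 2.37 times that in emMidgut, and in exHindgut 2.83 times that in exMidgut, each without overlap. Dnmt1 was at 95.8, 103.2, 102.1 and 113 TPM in emHindgut and 87.0, 78.8, 53.8 and 84.3 TPM in emMidgut, and at 91.7, 76.0, 81.1 and 78.6 TPM in exHindgut against 73.4, 38.3, 33.9 and 45.7 TPM in exMidgut. All 4 hindgut libraries lay above all 4 midgut libraries for Dnmt1, Uhrf1 and Dnmt3b in the embryonic gut (3 of 9, against 12.6% of all genes), and for Dnmt1 and Uhrf1 in the extraembryonic gut (2 of 9, against 10.2% of all genes). In the other direction, Tet1 and Tet2 lay without overlap below the midgut in emHindgut (2 of 9, against 13.4% of all genes). Their midgut means were 1.80 and 2.12 times those of the hindgut. Tet1 spanned 24.0 to 34.3 TPM in emHindgut and 34.6 to 64.6 TPM in emMidgut, where the 2 highest values were in the libraries with Dppa3. The part of germ cell RNA in the Tet1 difference was not tested. In exHindgut Tet2 alone lay below the midgut (1 of 9, against 11.0% of all genes), with a midgut mean 1.70 times that of the hindgut. Of 12 S phase genes, 6 lay above in the embryonic and 6 in the extraembryonic hindgut, and their part in the Dnmt1 and Uhrf1 values was not tested.

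The other lists held few calls at E9.5. Across partners of maintenance, imprint protection, methyl-CpG readers, base excision repair, methyl donor supply, TET cofactors and histone marks, 0 of 63 genes were called between exGut and emGut by limma, and 10 had an unadjusted p under 0.05. The exception was among 6 germline genes tested: Slc25a31, a mitochondrial carrier of the testis whose promoter is silenced by methylation elsewhere in the body, was at 15.7 ± 9.67 TPM in exGut (2.80 to 26.2, n = 8) and listed at 0 in all 8 emGut libraries, with a log2 difference of 3.78 (SE 0.37, adjusted p 2.13e-06). Slc25a31 passed the filter on low values only through the exGut libraries, so the direction of its call is no separate result.

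Tet1 and Tet3 were higher in exGut than in the yolk sac endoderm, but these calls depended on scaling. Visceral endoderm markers took 50430 to 58770 TPM in YsEndo against 1397 to 13570 TPM in exGut libraries, and the median log2 difference over all genes was 0.59 rather than 0. Of 9 genes tested 2 were higher in exGut, where 32.3% of all genes were. Tet3 was at 4.69, 5.97, 6.39 and 6.88 TPM in YsEndo and at 11.1 to 23.8 TPM (median 19.1) in exGut, with no overlap and a difference of 1.51 (SE 0.22, adjusted p 3.60e-05). Tet1 was at 15.7, 15.4, 21.7 and 19.0 TPM in YsEndo and at 19.3 to 50.9 TPM in exGut, a difference of 1.07 (SE 0.24, adjusted p 0.00122). Neither was called after quantile normalization (0.74 and 0.57) or after median-ratio rescaling (0.99 and 0.52), and the difference of Dnmt3a, 0.45 as deposited, turned to -0.13 under the latter. Relative to the median of all genes, the differences as deposited were 0.92 for Tet3, 0.48 for Tet1 and -0.88 for Zfp57, which was not called.

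At E13.5 the targeted gene came first. Trp53 was at 151.3 to 244.6 TPM in the 6 wild-type emIntestine libraries and at 33.4 to 166.7 TPM in the 6 exIntestine libraries from Cas9-treated hosts, so that the ranges overlapped, and the RNA level of a gene disrupted by small insertions or deletions need not show the loss of its product. No difference in the methylation genes was detected between extraembryonic and embryonic intestine cells, with wide errors. Of 9 genes 0 were called between exIntestine and emIntestine with organ as a covariate (0.625% of all), in the colon alone (0.269%) or in the small intestine alone (0.738%), and limma gave 0 of 9 an unadjusted p under 0.05 in each.

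Dnmt3b was at 4.09, 0.506 and 16.6 TPM in emColon, 7.32, 0.427 and 5.45 TPM in emSI, 12.7, 3.74 and 5.32 TPM in exColon and 5.73, 4.00 and 0.171 TPM in exSI. The log2 difference of 0.11 had a 95% interval from -1.39 to 1.60, so that a doubling in either direction was within the error. Dnmt3a was at 21.3 to 72.2 TPM in emIntestine and 30.8 to 81.8 TPM in exIntestine, a difference of -0.06 (interval -0.75 to 0.63). Tet1 was at 13.4 to 35.6 TPM and 6.62 to 32.3 TPM, a difference of -0.67 (interval -1.59 to 0.26). Uhrf1 and Dnmt1 stayed at 62.7 to 217.2 TPM and 28.5 to 91.7 TPM over all 12 libraries. Dnmt3l was listed at 0 in 11 of 12, with 0.235 TPM in the other. Mesenchyme markers reached 384.3 TPM in an emSI library, and their part in these values was not tested.

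**Figure D3:**
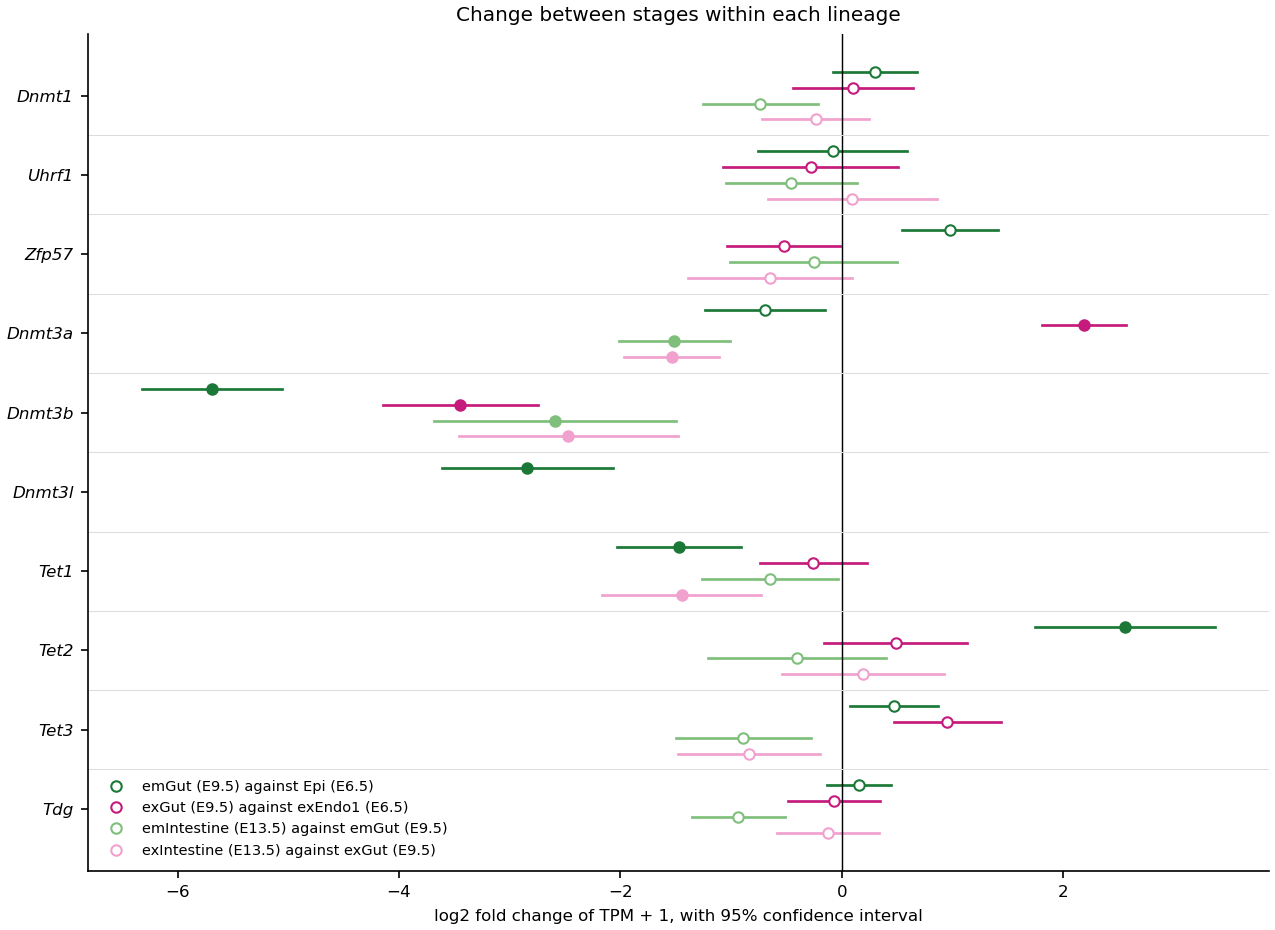
Log2 change of each gene from E6.5 to E9.5 and from E9.5 to E13.5 along the embryonic and the extraembryonic lineage, with 95% intervals from limma. Filled points were called and open points were not. Dnmt3b is lower at the later stage in all 4 plotted comparisons, and Dnmt3a rises from exEndo1 to exGut by 2.19 and falls in both lineages from E9.5 to E13.5.

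Between E6.5 and E9.5 Dnmt3b fell in both lineages. Along the embryonic lineage, from Epi to emGut, 3 of 10 genes fell (7.31% of all genes were lower) and 1 rose (22.4% of all were higher). Dnmt3b fell from 1465 ± 228 TPM (n = 4) to 29.5 ± 11.8 TPM (n = 8), a 49.7-fold ratio, with a log2 difference of -5.69 (SE 0.30, adjusted p 2.43e-09). Tet1 fell by 1.47 (SE 0.26, adjusted p 0.00033). Dnmt3l fell to being listed at 0 in all 8 emGut libraries (-2.84, SE 0.36, adjusted p 1.73e-05), and no ratio is given for it. It passed the filter on low values only through the 4 Epi libraries, so its place among the 3 is no separate result. Tet2 rose from 1.84 ± 0.901 to 16.8 ± 7.57 TPM (2.56, SE 0.38, adjusted p 7.19e-05). Dnmt3a, from 227 ± 85.4 to 134 ± 32.0 TPM, differed by -0.69 (adjusted p 0.034), and by -1.02 without the low Epi replicate 4, which made it a call. Zfp57 differed by 0.98 (adjusted p 0.00118), just under the size limit.

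Along the extraembryonic lineage Dnmt3a and Dnmt3b crossed in TPM, but the deposited read coverage did not follow. Coverage in exMidgut was 23.8 to 38.1 for Dnmt3a and 35.6 to 138.3 for Dnmt3b. In exHindgut it was 15.05 to 41.0 for Dnmt3a and 32.3 to 271.8 for Dnmt3b. The reason for this conflict was not tested. From exEndo1 to exGut 1 of 9 genes rose (18.8% of all) and 1 fell (11.5% of all). Dnmt3a rose from 28.3 ± 9.79 TPM (n = 4) to 128 ± 17.0 TPM (n = 8), with no overlap and a log2 difference of 2.19 (SE 0.18, adjusted p 2.39e-07). Dnmt3b fell from 308 ± 60.1 to 29.9 ± 14.5 TPM (-3.45, SE 0.33, adjusted p 1.09e-06). Tet3 differed by 0.95 (adjusted p 0.00313), and the 2 copying genes by 0.10 (Dnmt1) and -0.28 (Uhrf1). Dnmt3l, at 0.249 to 2.02 TPM in exEndo1 and listed at 0 in 7 of 8 exGut libraries, did not pass the filter on low values and was not tested.

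From the proximal endoderm to the yolk sac endoderm, 1 of 9 genes rose (7.95% of all) and 2 fell (21.6% of all), with a median of -0.41 over all genes. Zfp57 rose from 4.90 to 7.09 TPM in exEndo2 to 33.4, 47.4, 40.9 and 30.8 TPM in YsEndo, a 6.002-fold ratio and a log2 difference of 2.40 (SE 0.18, adjusted p 2.46e-07). Dnmt3b fell from 183.1 ± 38.2 to 13.7 ± 3.11 TPM (-3.65, SE 0.17, adjusted p 6.82e-09) and Tet1 from 50.1 ± 12.4 to 17.9 ± 3.02 TPM (-1.42, SE 0.17, adjusted p 1.73e-05). Dnmt3a, from 40.0 to 63.6 TPM in exEndo2 to 80.7 to 100.2 TPM in YsEndo, differed by 0.91 (adjusted p 0.000105) without overlap, and by 1.06 and 1.32 under quantile normalization and median-ratio rescaling, which made it a call. Uhrf1 (-0.95) and Tet3 (-0.89) were just under the size limit.

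From E9.5 to E13.5 the de novo enzymes fell in both lineages. In the embryonic lineage 2 of 9 genes fell (15.9% of all were lower), with a median of -0.46 over all genes. Dnmt3a fell from 134 ± 32.0 to 48.2 ± 17.7 TPM (-1.51, SE 0.24, adjusted p 0.000296), without overlap, and Dnmt3b from 29.5 ± 11.8 to 5.73 ± 5.98 TPM (-2.59, SE 0.52, adjusted p 0.00191). In the extraembryonic lineage, where the E13.5 cells were also Trp53 knockout and the E9.5 cells were not, 3 of 9 fell (10.2% of all were lower), with a median of -0.28, and stage and genotype cannot be told apart. Dnmt3a fell from 128 ± 17.0 to 46.1 ± 19.95 TPM (-1.54, SE 0.21, adjusted p 0.000125), Dnmt3b from 29.9 ± 14.5 to 5.27 ± 4.12 TPM (-2.47, SE 0.47, adjusted p 0.00183) and Tet1 from 40.1 ± 10.8 to 15.9 ± 10.4 TPM (-1.45, SE 0.34, adjusted p 0.00796). Relative to those medians Dnmt3a was lower by -1.05 and -1.26, and Dnmt3b by -2.13 and -2.19. In the embryonic lineage Tet1 differed by -0.65 (adjusted p 0.101).

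Whether the lineage difference itself changed between stages was tested as an interaction, called at an adjusted p under 0.05. Between E6.5 and E9.5 it changed for 6 of 10 genes, against 27.5% of all genes. The extraembryonic-minus-embryonic difference moved upwards by 2.88 (SE 0.32, adjusted p 2.78e-07) for Dnmt3a, 2.25 (SE 0.47, adjusted p 0.000719) for Dnmt3b, 2.07 (SE 0.42, adjusted p 0.000496) for Dnmt3l and 1.22 (SE 0.36, adjusted p 0.0125) for Tet1. It moved downwards by -2.07 (SE 0.50, adjusted p 0.00263) for Tet2 and -1.502 (SE 0.32, adjusted p 0.000803) for Zfp57. These are the 6 genes called at E6.5, in each case with the sign that closes the difference. The same E6.5 difference enters the interaction with a minus sign, so this overlap is no separate result. Dnmt3l was listed at 0 in all 8 emGut and in 7 of 8 exGut libraries. Its interaction value is therefore largely its E6.5 difference reversed. Between E9.5 and E13.5 it changed for 0 of 9 genes by limma (0.0997% of all), and 1, Tdg, had an unadjusted p under 0.05 (0.81, SE 0.29, adjusted p 0.396, and 0.0391 when all 44 libraries entered 1 fit).

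The make-up of the enzyme families shifted as well. Dnmt3b made up 86.9 ± 3.61% of Dnmt3a plus Dnmt3b TPM in Epi, 91.4 ± 2.90% in exEndo1 and 78.3 ± 5.58% in exEndo2 (SD, n = 4 each). The difference of 4.52 percentage points between exEndo1 and Epi had an exact two-sided permutation p of 0.114, where the smallest possible is 0.0286. At E9.5 the share was 17.7 ± 5.10% in emGut and 18.7 ± 8.44% in exGut (n = 8 each, difference 0.993 points, exact permutation p 0.783), and 12.8 ± 2.52% in YsEndo. At E13.5 group means were 7.75 to 15.5%. These shares hold for TPM, and read coverage ranked the 2 genes otherwise in most E9.5 libraries. Coverage in emMidgut was 19.9 to 33.6 for Dnmt3a and 33.05 to 53.05 for Dnmt3b. In emHindgut it was 16.4 to 54.9 for Dnmt3a and 61.6 to 202.7 for Dnmt3b. The 2 enzymes together fell from 1693 ± 299.3 TPM in Epi and 336.1 ± 62.5 TPM in exEndo1 to group means of 136.7 to 190.5 TPM in the E9.5 gut and 48.6 to 57.7 TPM at E13.5.

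The TET enzymes were divided otherwise. Tet1 made up 89.2 ± 3.07% of the TET total in Epi and 72.2 ± 4.42% in exEndo1 (n = 4 each), a difference of -17.0 points whose exact two-sided permutation p was 0.0286, which is the lowest value this design allows. The share was 53.8 ± 7.29% in emGut and 55.1 ± 7.07% in exGut (n = 8 each, difference 1.31 points, exact permutation p 0.718). Tet2 made up 1.78 ± 1.21% in Epi, 13.4 ± 4.51% in exEndo1, and means of 25.8 to 36.4% in the E13.5 groups. The TET total was 112.8 ± 19.6 TPM in Epi, 64.3 ± 5.77 TPM in exEndo1 and 29.5 ± 3.56 TPM in YsEndo.

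**Figure D4:**
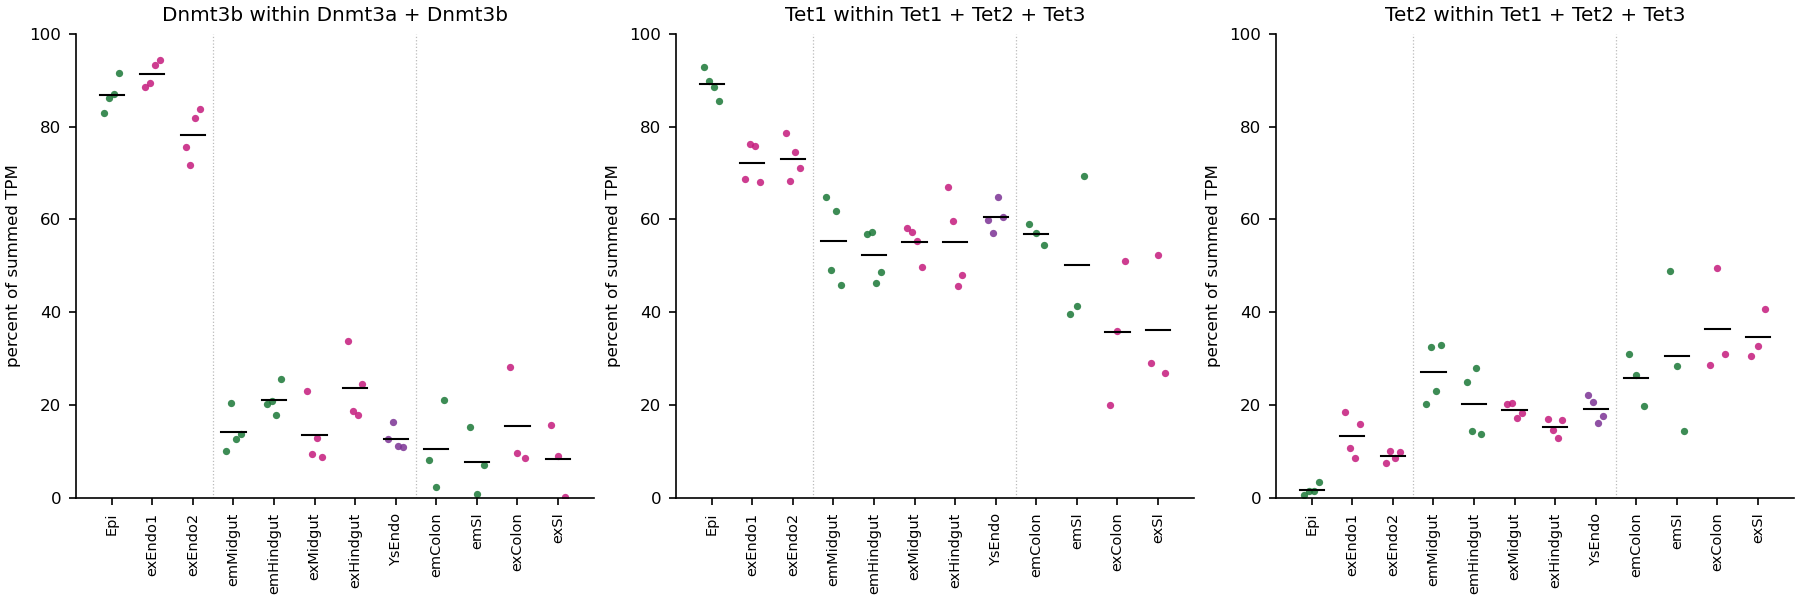
Share of Dnmt3b in Dnmt3a plus Dnmt3b TPM, and of Tet1 and of Tet2 in the sum of the 3 TET genes, in percent, for each library by group. Colours are as in the plot of levels and bars are group means. In TPM, the Dnmt3b share drops from 71.8% or more in all 12 E6.5 libraries to 33.8% or less in all later ones. By read coverage Dnmt3b still stood above Dnmt3a in emHindgut (61.6 to 202.7 against 16.4 to 54.9).

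Over the 12 groups each gene had its own order of levels. Neighbouring groups in these orders mostly overlapped. For Dnmt3b, Epi stood clear above exEndo1, and exEndo2 clear above emHindgut, the highest later group. For Tet1, Epi stood clear above exEndo2, and for Tet2 Epi was the lowest group, clear below YsEndo. Zfp57 was highest in exEndo1 and lowest in exEndo2, which lay clear below Epi. Dnmt1 and Uhrf1 were highest in emHindgut, clear of exHindgut, and no neighbours stood apart for Tet3 (highest in exMidgut, lowest in YsEndo) or Tdg.

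Dnmt3b had the widest range of group means, 8.74 on the log2(TPM + 1) scale, followed by Tet1 (3.15), Tet2 (3.11) and Dnmt3a (2.92), and Tdg had the smallest (1.22). As a description over the 12 group means, which share libraries and stage, the Pearson r was 0.89 between Dnmt1 and Tdg, 0.86 between Dnmt3b and Tet1, 0.85 between Dnmt3b and Dnmt3l and 0.79 between Dnmt1 and Uhrf1, and -0.69 between Dnmt3b and Tet2. Among 14689 genes, those with the profile most like Dnmt3b were Rbm27 (r 0.99), Nol8 (0.97) and Tbxa2r (0.97), and those most like Tet1 were Tspan5 (0.94), Kctd3 (0.93) and Caprin1 (0.92). For Tet2 they were Casp8 (0.97), Phldb2 (0.96) and Peg3 (0.95), and for Dnmt3a Eif3c (0.94), Hspb2 (0.87) and Fam171b (0.86).

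The start regions of these genes differ in CpG content. All 10 matched RefSeq start windows (GRCm38.p6, 250 bases before to 50 after the start), 19 windows in all. They held 2 to 57 CpG, where the median of 32851 windows of the same length was 7. Tet2 held 57, and as many or more were found in 0.152% of all windows. Dnmt3a held 46, 47 and 18 in its 3 windows, Dnmt3b 30 in the window that begins with the letters printed above, and Zfp57 4 to 9 in its 3. The E2F motif (TTTCCCGC or TTTGGCGC, on both strands) was searched because Dnmt1, Uhrf1 and the S phase list leaned the same way at E9.5. It matched 1 of the 19, in Dnmt1 at chr9:20952574-20952873, and 1.56% of all windows. No Uhrf1 window matched, and a role of E2F was not tested.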

How the data were processed

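Low-input poly(A) libraries that do not mark strand were made from 44 samples in 12 groups. Adapters were removed with cutadapt 4.1, alignment to mm10 plus the reporter sequences used STAR 2.7.9a, and StringTie 2.0.6 estimated levels on GENCODE VM23, all by the authors. The deposited files hold TPM (used here, summed per gene identifier), FPKM (deposited beside it, an alternative here) and read coverage per gene. Coverage was used only for depth and to set beside the TPM of Dnmt3a and Dnmt3b, and of Tet1 and Tet3. Counts were not used here, so the count test of the study was replaced by limma 3.58.1 (R 4.3.3), with lmFit and eBayes with trend, on log2(TPM + 1).

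Protein-coding genes not on chromosome Y and above 1 TPM in at least 4 libraries (3 where only E13.5 libraries entered) were tested, with Benjamini-Hochberg adjustment. Gene types came from GENCODE by identifier, which matched 32235 of 32287 entries. Shares were compared by exact permutation over libraries with SciPy 1.17.1 (Python 3.11.15, pandas 2.3.3, NumPy 2.4.6). Scripts were tested on simulated data. Groups came from the sample labels. Within a group, replicates are separate embryos at E6.5 and E13.5 and separate pools at E9.5. Compared groups could hold tissue or cells of the same embryos, and the labels do not say which libraries share them. The permutation tests took all libraries as independent and did not use gut region.

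The 10 genes and the gene and marker lists were chosen with earlier results of these data known. All 10 are named. From each other list, up to 2 called genes per direction with the largest difference are named for exEndo1 against Epi and exGut against emGut, and the 3 most alike genes for the 4 genes of widest range. A result of the methyl donor list is not reported here. Single marker genes and Dnmt3c were singled out after their values were seen. Exons of Dnmt3a, Dnmt3l, Tet2 and Tdg overlap a gene on the other strand, whose highest TPM was 2.27, 2.58, 4.36 and 4.00, and reads of the 2 cannot be told apart without strand. Same-numbered exEndo1 and exEndo2 libraries deviated together (correlations 0.132 to 0.361), so their numbers were taken as pairs, with the pairing coming from the data. In other group pairs some or all correlations were under 0.1.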

Additional observations from a re-analysis of the deposited data

Results flagged for a closer look

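Single libraries stood far from the others of their group of 4 in 7 of 80 combinations of gene and group, where chance alone gives about 1 in 20. Dnmt1 was at 55.5 TPM in Epi replicate 4 and at 76.2 to 78.8 TPM in the other three. Dnmt3l was at 19.0 TPM in Epi replicate 1 (others 2.56 to 5.33), at 2.02 TPM in exEndo1 replicate 1 (others 0.249 to 0.550) and at 0.0185 TPM in exMidgut replicate 3 (others listed at 0). Tet1 was at 34.3 TPM in emHindgut replicate 1 (others 24.0 to 24.6). Dnmt3a was at 154.3 TPM in exMidgut replicate 4 (others 128.8 to 131.2). Dnmt3b was at 18.3 TPM in YsEndo replicate 2 (others 11.7 to 12.7).

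The lineage difference changed between E6.5 and E9.5, by the interaction test of limma, for Dnmt3a (2.88), Dnmt3b (2.25), Dnmt3l (2.07), Tet1 (1.22), Tet2 (-2.07) and Zfp57 (-1.502) on the log2 scale. In this comparison stage, dissection or sorting, and pooling of embryos cannot be told apart. The value of Dnmt3l is largely its E6.5 difference reversed.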

How the results depend on the processing

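Of 449 alternatives for the counts of genes called and the family shares, 436 gave the same verdict, and of 3668 for single genes 3617 did, with 22 that lost a call, 29 that gained one and 0 that reversed. In 135 cases a difference changed sign, none of them called. The count called for exGut against YsEndo was 0 under quantile normalization, 0 under median-ratio rescaling and 1 with FPKM, against 2. That for exEndo1 against exEndo2 ran from 1 to 2 when single libraries were left out (2 without exEndo1 replicate 2), and that for the lineage difference between E9.5 and E13.5 was 1 with all 44 libraries in 1 fit. Leaving out single libraries, the count was 5 to 6 for exEndo1 against Epi (6 with all libraries), 4 to 6 for exEndo2 against Epi (6 with all libraries) and 4 to 6 for emGut against Epi (4 with all libraries, with Dnmt3a or Zfp57 gained), and the Tet1 share difference ran from -18.4 to -15.6 points, where 0.0571 is the smallest exact permutation p for 3 against 4. Leaving out Epi 1 and 4 together, or exEndo2 2 and 4 together, was chosen after seeing the data and gave 5 and 4 called for exEndo2 against Epi.

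A replicate block, for which the exEndo1 and exEndo2 numbers act as pairs, took the genes called between them from 732 to 771 and changed no call of the 10 genes there or in any other comparison with shared numbers. For the lineage difference between E9.5 and E13.5 it took all genes called from 14 to 5. A region covariate was not fitted where a group held no gut region (exGut against YsEndo and exEndo1, emGut against Epi).

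Over all genes, calls rose with all 44 libraries in 1 fit from 316 to 591 (exGut against emGut, 587 with region as covariate), 78 to 1207 (exIntestine against emIntestine), 30 to 1855 (colon), 84 to 766 (small intestine), 14 to 550 (lineage difference to E13.5), 13 to 47 (origin by region) and 1684 to 2744 (exIntestine against exGut), and fell from 732 to 458 (exEndo1 against exEndo2). Without a filter they went from 321 to 173 (midgut), 378 to 223 (hindgut), 30 to 8, 84 to 8, 14 to 28 and 13 to 8. Midgut calls were 125 without emMidgut 1 and 3, colon calls 10 with a pseudocount of 0.1 and small intestine calls 42 without trend. Quantile normalization took emIntestine against emGut from 2409 to 1285. The share of calls that were higher moved, under quantile normalization and median-ratio rescaling, from 76.3% to 49.7% and 54.8% (exGut against YsEndo), 75.4% to 48.6% and 57.0% (emGut against Epi), 26.9% to 52.4% and 52.6% (YsEndo against exEndo2), 14.0% to 53.7% and 32.1% (emIntestine against emGut), 22.0% to 52.4% and 35.0% (exIntestine against exGut) and 38.7% to 54.2% and 49.9% (lineage difference to E9.5), and from 62.1% to 49.4% (exGut against exEndo1, quantile). The causes were not tested. Groups of 3 to 4 low-input libraries limit what can be seen: at E13.5 the interval of Dnmt3b ran from -1.39 to 1.60. Intervals cover the spread between libraries.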
